A study of Homo sapiens with 8 samples.

Results

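The cyclins, cyclin-dependent kinases (CDKs) and retinoblastoma (RB) proteins that govern passage through G1 phase were followed in 92.1 cells, an established human uveal melanoma line. The members were the rows of the deposited expression table with the symbols CCND1, CCND2, CCND3, CDK4, CDK6, CCNE1, CCNE2, RB1, RBL1 and RBL2. All 10 were among the 18406 genes of the table, and 9 passed the filter on low values, a mean of at least 10, which left 13320 genes for testing. CCND2 did not pass.

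The 4 groups had 2 libraries each and were all harvested at 24 h. The first group received trametinib together with panobinostat, the second trametinib at 10 nM, the third panobinostat at 10 nM and the fourth the vehicle, DMSO. Trametinib inhibits MEK1 and MEK2, the kinases that activate ERK, and panobinostat inhibits histone deacetylases. The combination label states 10 nM a single time, and this dose was taken to apply to either drug. The panobinostat and combination labels also carry the term MEKi, and the drug names were followed. Every group comes from 1 cell line, and no source used here says that the replicates were separate cultures. A p-value therefore reflects variation among these libraries that may be technical only. The libraries with panobinostat, alone or combined, carry sample numbers apart from those of the others. Any difference between these sets cannot be told apart from panobinostat.

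Growth signals acting through ERK raise transcription of the D-type cyclins, which bind CDK4 or CDK6. These kinases begin the phosphorylation of RB and of its relatives p107 (gene RBL1) and p130 (RBL2), which hold E2F transcription factors in check. Freed E2F drives the E-type cyclins, which act with CDK2 to complete RB phosphorylation and start S phase. p107 is itself an E2F target, whereas p130 accumulates in quiescent cells as part of the repressive DREAM complex. Uveal melanomas usually carry activating mutations of G alpha q or G alpha 11, which signal in part through ERK.

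The libraries held between 6897784 and 16861001 reads assigned to genes. The trametinib pair agreed less well than the others, at r = 0.897 between replicates against 0.974 to 0.991 (log2(value + 1), 13320 genes). Trametinib replicate 2 had 5362 genes at 0, trametinib replicate 1 had 3743 and the other 6 libraries had 2222 to 2890. Of the genes with reads, 2.10% had only 1 to 5 reads in trametinib replicate 2 and 6.74% in trametinib replicate 1. This share was 9.93% to 13.3% in the other 6 libraries. All 7 melanocytic markers in the table, MITF, PMEL, MLANA, TYR, TYRP1, DCT and SOX10, had reads, with sums of 137486 to 138966 in the combination, 167229 to 175142 with trametinib, 99938 to 103741 with panobinostat and 103558 to 111479 in vehicle. DCT averaged 247 in the combination, 1948 with trametinib, 7.59 with panobinostat and 9.60 in vehicle. The endothelial marker CDH5 was at 0 throughout. All 4 fibroblast markers (DCN, COL1A1, PDGFRA, LUM) had reads, with sums of 1261 to 1307 in the combination, 806 to 1095 with trametinib, 1012 to 1013 with panobinostat and 402 to 416 in vehicle. Sums for the 4 markers of retinal pigment epithelium, carried by BEST1, were 637 to 704 in the combination, 776 to 794 with trametinib, 241 to 245 with panobinostat and 177 to 179 in vehicle. The 3 immune markers, carried by CD68, summed to 860 to 947 in the combination, 762 to 843 with trametinib, 1421 to 1498 with panobinostat and 615 to 654 in vehicle. The 4 endothelial markers, carried by VWF, summed to 33.5 to 41.0 in the combination, 85.4 to 144 with trametinib, 0 to 7.14 with panobinostat and 2.41 to 3.17 in vehicle. The 2 epithelial markers, carried by KRT14, summed to 22.2 to 73.0 in the combination, 9.04 to 38.1 with trametinib, 0 to 3.02 with panobinostat and 3.17 to 4.21 in vehicle. The part of these marker levels in the results below was not tested. All libraries are labelled as 1 cell line, so these sums are levels in cultures of that line and do not count other cell types. In bulk libraries, fewer cells expressing a gene and less RNA per cell cannot be told apart.

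Trametinib lowered the transcripts of cyclins D1 and D3, CDK6, both E-type cyclins and p107, raised that of p130, and left CDK4 and RB1 below the threshold of an adjusted p under 0.05. Panobinostat gave another pattern, with cyclin D1 higher and cyclin D3, CDK4, cyclin E2 and p107 lower. In the combination all 9 tested members passed the threshold, where 50% of the 13320 tested genes did, with RB1 and RBL2 higher and the other 7 lower. The values below are normalised read counts as deposited, and every change is a log2 change of value + 1 with its standard error from limma.

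**Figure D1:**
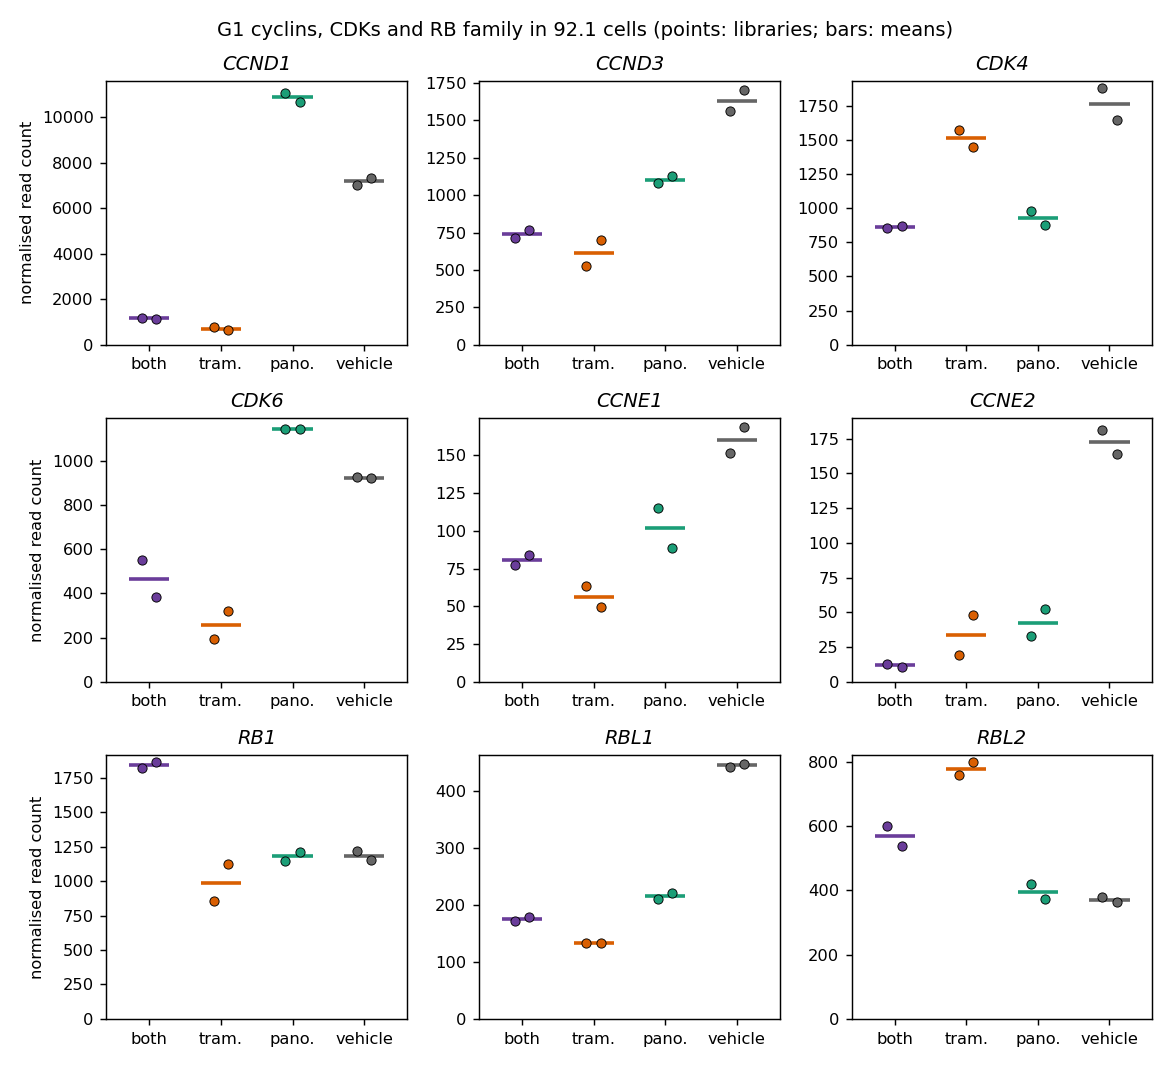
Normalised read counts (linear vertical axes from 0) of the 9 tested members in each library, in the order combination (both), trametinib (tram.), panobinostat (pano.) and vehicle; points are libraries and bars are group means. CCND1 lies between 632 and 1191 in the 4 libraries with trametinib, alone or combined, and RB1 is highest in the combination, at 1823 and 1862.

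Cyclin D1 was the member with the most reads in vehicle. CCND1 was at 1191 and 1114 in the combination, at 785 and 632 with trametinib, at 11074 and 10677 with panobinostat, against 7030.2 and 7329.5 in vehicle. No group overlapped another, and panobinostat gave the high end and trametinib the low end. The change was -3.35 ± 0.096 with trametinib (limma adjusted p = 2.2e-08), or 10.2-fold. It was -2.64 ± 0.096 in the combination (limma adjusted p = 1.1e-07) and 0.60 ± 0.096 with panobinostat (limma adjusted p = 0.0016). Panobinostat also raised CCND1 on top of trametinib, by 0.71 ± 0.096 (limma adjusted p = 0.00055), and trametinib lowered it on top of panobinostat, by -3.24 ± 0.096 (limma adjusted p = 1.6e-07). Of the 13320 genes, 0.563% changed by more than CCND1 in that last comparison.

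Cyclin D3, the other D-type cyclin of these cells, moved less and did not share the panobinostat rise. CCND3 was at 716 and 765 in the combination, 527 and 698 with trametinib, 1083 and 1126 with panobinostat, against 1562 and 1705 in vehicle. Every treated library lay below both vehicle libraries. The changes against vehicle were -1.14 ± 0.13 in the combination (limma adjusted p = 7.6e-05), -1.43 ± 0.13 with trametinib (limma adjusted p = 1.7e-05) and -0.56 ± 0.13 with panobinostat (limma adjusted p = 0.01). The panobinostat call ended without vehicle replicate 2 (-0.50), panobinostat replicate 1 (-0.53) or panobinostat replicate 2 (-0.59), or without the intensity trend (limma adjusted p = 0.055). Against panobinostat alone, the combination was lower by -0.58 ± 0.13 (limma adjusted p = 0.011), a call that ended when either panobinostat library (-0.60 without replicate 1 and -0.55 without 2) or either combination library (-0.53 and -0.62) was left out, or without the intensity trend (limma adjusted p = 0.062). Against trametinib the change was 0.29 (95% interval -0.0038 to 0.58), which did not pass, but it did without trametinib replicate 2 (0.49, limma adjusted p = 0.00059).

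Cyclin D2 was at or near 0 reads. CCND2 had 3 reads in panobinostat replicate 2, 2 reads in combination replicate 2 and 0 in the other 6 libraries, where a count of 0 allows a value of up to 1.81 to 3.51 for 3 reads. Such limits cover counting error only. No change was detectable at this depth, and CCND2 entered no test.

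The kinase partners of the D-type cyclins went different ways, CDK4 with panobinostat and CDK6 with trametinib. CDK4 was at 852 and 869 in the combination, 1576 and 1451 with trametinib, 978 and 878 with panobinostat, against 1882 and 1651 in vehicle. The 4 libraries that received panobinostat lay between 852 and 978, and the other 4 between 1451 and 1882. This split is also that between the separately numbered sets, so a set difference cannot be told apart from panobinostat here. Changes against vehicle were -1.03 ± 0.097 in the combination (limma adjusted p = 2.2e-05) and -0.93 ± 0.097 with panobinostat (limma adjusted p = 0.00016). With trametinib the change was -0.22 (95% interval -0.44 to -0.0035, limma adjusted p = 0.083), which passed without trametinib replicate 1 (-0.28, limma adjusted p = 0.022). Added to trametinib, panobinostat lowered CDK4 by -0.81 ± 0.097 (limma adjusted p = 0.00026). Added to panobinostat, trametinib changed it by -0.11 (95% interval -0.32 to 0.11), which did not pass.

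CDK6 was at 553 and 382 in the combination, 196 and 322 with trametinib, 1146 and 1145 with panobinostat, against 926 and 922 in vehicle. The libraries with trametinib, alone or combined, all lay below the other 4, and the replicates of the combination and of trametinib were spread widely. The change was -1.01 ± 0.23 in the combination (limma adjusted p = 0.005), a call that ended without combination replicate 2 (-0.74). It was -1.87 ± 0.23 with trametinib (limma adjusted p = 0.00012). With panobinostat it was 0.31 (95% interval -0.21 to 0.83), which did not pass, although it did when trametinib replicate 1 (limma adjusted p = 0.046) or 2 (limma adjusted p = 0.046) was left out of the shared estimate of the spread. The combination exceeded trametinib by 0.87 ± 0.23 (limma adjusted p = 0.018), which ended without combination replicate 1 (0.60) or without the intensity trend (limma adjusted p = 0.079) and was 0.51 without trametinib replicate 1. It was lower than panobinostat by -1.32 ± 0.23 (limma adjusted p = 0.0028).

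The RefSeq promoter window of CDK4, which runs from 250 bases before to 50 bases after the start, is shown because it holds a repeated motif. Capitals mark CACGTG, the E-box bound by MYC and related factors, and the strand is the minus strand of GRCh38.p14 at chr12:57752261-57752560. CACGTG reads the same on both strands.
CDK4: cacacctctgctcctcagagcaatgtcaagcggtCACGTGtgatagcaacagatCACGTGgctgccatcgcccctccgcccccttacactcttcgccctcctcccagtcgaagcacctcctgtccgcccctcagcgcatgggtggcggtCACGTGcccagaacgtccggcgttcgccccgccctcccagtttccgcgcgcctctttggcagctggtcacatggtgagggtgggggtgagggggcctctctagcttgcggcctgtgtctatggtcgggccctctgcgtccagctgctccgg
The matches begin at -216, -196 and -101 from the start. Of 35116 RefSeq windows of this length, 7.26% hold the word, and CDK6 had 1 match, at position 31. A match is a description of the letters and not evidence of binding.

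The within-library ratio of CDK6 to CDK4, which no scaling factor can alter, separated the drugs. It was 0.648 and 0.440 in the combination, 0.124 and 0.222 with trametinib, 1.17 and 1.30 with panobinostat, against 0.492 and 0.559 in vehicle. Panobinostat libraries had the highest ratios and trametinib libraries the lowest, and the combination spanned the vehicle values. The ratio of CCND1 to CCND3 was 1.66 and 1.46 in the combination, 1.49 and 0.905 with trametinib, 10.2 and 9.48 with panobinostat, against 4.50 and 4.30 in vehicle. These ratios are not corrected for transcript length and are compared only between libraries. No p is given, as the smallest two-sided p of an exact permutation test of 2 libraries against 2 is 0.333.

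**Figure D2:**
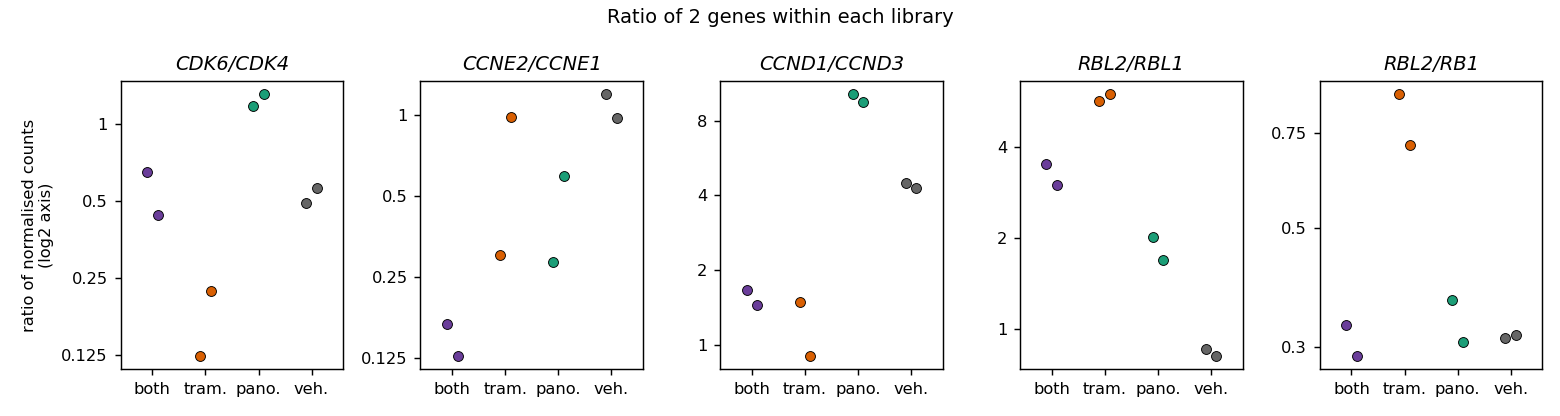
Ratio of normalised counts of 2 genes within each library (vertical log2 axes, 1 point per library), for the combination (both), trametinib (tram.), panobinostat (pano.) and vehicle (veh.). The CDK6 to CDK4 ratio lies at 0.124 and 0.222 with trametinib and at 1.17 and 1.30 with panobinostat, and the RBL2 to RBL1 ratio at 5.68 and 5.98 with trametinib and 0.857 and 0.812 in vehicle.

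Of the E-type cyclins, which activate CDK2, cyclin E2 fell in all 3 treatments and cyclin E1 fell with trametinib and in the combination. CCNE1 was at 77.3 and 83.7 in the combination, 63.2 and 49.2 with trametinib, 115 and 88.7 with panobinostat, against 152 and 169 in vehicle. All treated libraries lay below vehicle. The change was -1.50 ± 0.29 with trametinib (limma adjusted p = 0.0021) and -0.98 ± 0.29 in the combination (limma adjusted p = 0.019). The second call ended without vehicle replicate 1 (-1.06) or 2 (-0.91) or combination replicate 1 (-0.93) or 2 (-1.04). With panobinostat the change was -0.66 (95% interval -1.31 to 0.0024, limma adjusted p = 0.12), which passed without trametinib replicate 1 (limma adjusted p = 0.025) or 2 (limma adjusted p = 0.024). Between the combination and trametinib it was 0.52 (95% interval -0.14 to 1.18), which passed without trametinib replicate 1 (0.70, limma adjusted p = 0.046). Between the combination and panobinostat it was -0.33 (95% interval -0.99 to 0.33), which did not pass.

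CCNE2 was at 12.9 and 10.6 in the combination, 19.1 and 48.2 with trametinib, 32.6 and 52.4 with panobinostat, against 181 and 164 in vehicle. Its combination values rest on 11 and 7 reads, the fewest of any tested member, and its standard error of 0.53 was the widest. The change was -3.77 ± 0.53 in the combination (limma adjusted p = 3e-04), or 13.6-fold, with 1.48% of tested genes changing by more. It was -2.46 ± 0.53 with trametinib (limma adjusted p = 0.0038), and -1.82 without trametinib replicate 1 or -3.11 without replicate 2. It was -2.03 ± 0.53 with panobinostat (limma adjusted p = 0.018), a call that ended when either vehicle library (-1.96 without replicate 1 and -2.10 without 2) or either panobinostat library (-1.70 and -2.37) was left out. The combination was lower than panobinostat by -1.74 ± 0.53 (limma adjusted p = 0.042), which ended when any 1 of the vehicle (-1.74 and -1.74), panobinostat (-2.07 and -1.40) or combination libraries (-1.86 and -1.61) was left out, replicate 1 first, and also with no filter (limma adjusted p = 0.077) or no intensity trend (limma adjusted p = 0.057). Against trametinib the difference of -1.31 (95% interval -2.50 to -0.11, limma adjusted p = 0.089) did not pass, but it did without trametinib replicate 1 (-1.95) and by DESeq2 (-1.52). The locus of CCNE2 overlaps INTS8, with a mean value of 980 over the libraries. The sources used here do not state if counting used strand, so a share of INTS8 reads in CCNE2 was not tested.

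The RB family divided 3 ways. RB1 was at 1823 and 1862 in the combination, 855 and 1120.2 with trametinib, 1146 and 1212 with panobinostat, against 1219 and 1150.3 in vehicle. Both combination libraries stood above all others, while the panobinostat and vehicle libraries overlapped. RB1 rose by 0.64 ± 0.12 in the combination against vehicle (limma adjusted p = 0.0016), by 0.91 ± 0.12 against trametinib (limma adjusted p = 0.00043) and by 0.64 ± 0.12 against panobinostat (limma adjusted p = 0.0038). With panobinostat alone its change was -0.0068 (95% interval -0.27 to 0.26). With trametinib alone it was -0.27 (95% interval -0.54 to -0.0073, limma adjusted p = 0.081), which passed without trametinib replicate 2 (-0.47, limma adjusted p = 0.00018).

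p107 was lower in every treatment. RBL1 was at 172 and 179.5 in the combination, 133 and 134 with trametinib, 210.0 and 221 with panobinostat, against 443 and 447 in vehicle. The replicates lay close together and no group overlapped another. The changes against vehicle were -1.34 ± 0.17 in the combination (limma adjusted p = 0.00013), -1.73 ± 0.17 with trametinib (limma adjusted p = 2.4e-05) and -1.04 ± 0.17 with panobinostat (limma adjusted p = 0.0015). The combination differed from trametinib by 0.39 (95% interval 0.022 to 0.77, limma adjusted p = 0.097) and from panobinostat by -0.29 (95% interval -0.66 to 0.081, limma adjusted p = 0.25), neither of which passed, although the first did without the intensity trend (limma adjusted p = 0.029).

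The RBL1 promoter window is shown because it was the only one of 5 members' windows to hold an E2F word. The 5 are those with a RefSeq window at the outermost start of the gene, CDK4, CDK6, CCNE1, RBL1 and RBL2. The windows of RB1 and CCND3 start inside the gene and were not used. CCND1, CCND2 and CCNE2 had no window and were not searched. The words searched on both strands were TTTCCCGC, TTTCGCGC, TTTGCCGC and TTTGGCGC, and 3.31% of the 35116 windows hold at least 1. The words share letters with one another but the matches shown do not overlap. The window lies on the minus strand of GRCh38.p14 at chr20:37095948-37096247, and capitals mark the matches.
RBL1: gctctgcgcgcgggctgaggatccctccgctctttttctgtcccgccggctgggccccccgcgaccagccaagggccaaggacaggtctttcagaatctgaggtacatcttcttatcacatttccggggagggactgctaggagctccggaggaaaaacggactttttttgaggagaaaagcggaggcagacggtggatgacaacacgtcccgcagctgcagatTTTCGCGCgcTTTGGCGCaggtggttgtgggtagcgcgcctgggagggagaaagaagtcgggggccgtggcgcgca
The matches begin at -26 and -16 from the start. That CDK4, CDK6, CCNE1 and RBL2 had none says only that these letters are not in those windows. The words TGACGTCA, a cyclic AMP response element, and TGANTCA, bound by AP-1, were also searched and matched in 0 of the 5 windows, against 1.85% and 7.71% of the 35116.

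p130 moved opposite to p107 with trametinib. RBL2 was at 602 and 539 in the combination, 758 and 799 with trametinib, 421 and 372 with panobinostat, against 379.8 and 363 in vehicle. Libraries with trametinib, alone or combined, lay above the others, and panobinostat and vehicle overlapped. RBL2 rose by 1.06 ± 0.12 with trametinib (limma adjusted p = 7.4e-05) and by 0.61 ± 0.12 in the combination (limma adjusted p = 0.0022). With panobinostat the change was 0.091 (95% interval -0.18 to 0.36). The combination was lower than trametinib by -0.45 ± 0.12 (limma adjusted p = 0.019), a call that ended without combination replicate 2 (-0.37). It was higher than panobinostat by 0.52 ± 0.12 (limma adjusted p = 0.012), which ended without panobinostat replicate 2 (0.43) or combination replicate 1 (0.44).

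The ratio of RBL2 to RBL1 was 3.50 and 3.00 in the combination, 5.68 and 5.98 with trametinib, 2.00 and 1.68 with panobinostat, against 0.857 and 0.812 in vehicle. All treated libraries lay above vehicle, in the order trametinib, combination and panobinostat with no overlap. The ratio of RBL2 to RB1 was 0.330 and 0.289 in the combination, 0.886 and 0.713 with trametinib, 0.367 and 0.307 with panobinostat, against 0.312 and 0.316 in vehicle, so that the trametinib libraries alone stood apart. The loci of CDK4, RB1 and RBL2 overlap TSPAN31, LPAR6 and AKTIP, whose mean values over the libraries were 160.0, 63.3 and 68.3.

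**Figure D3:**
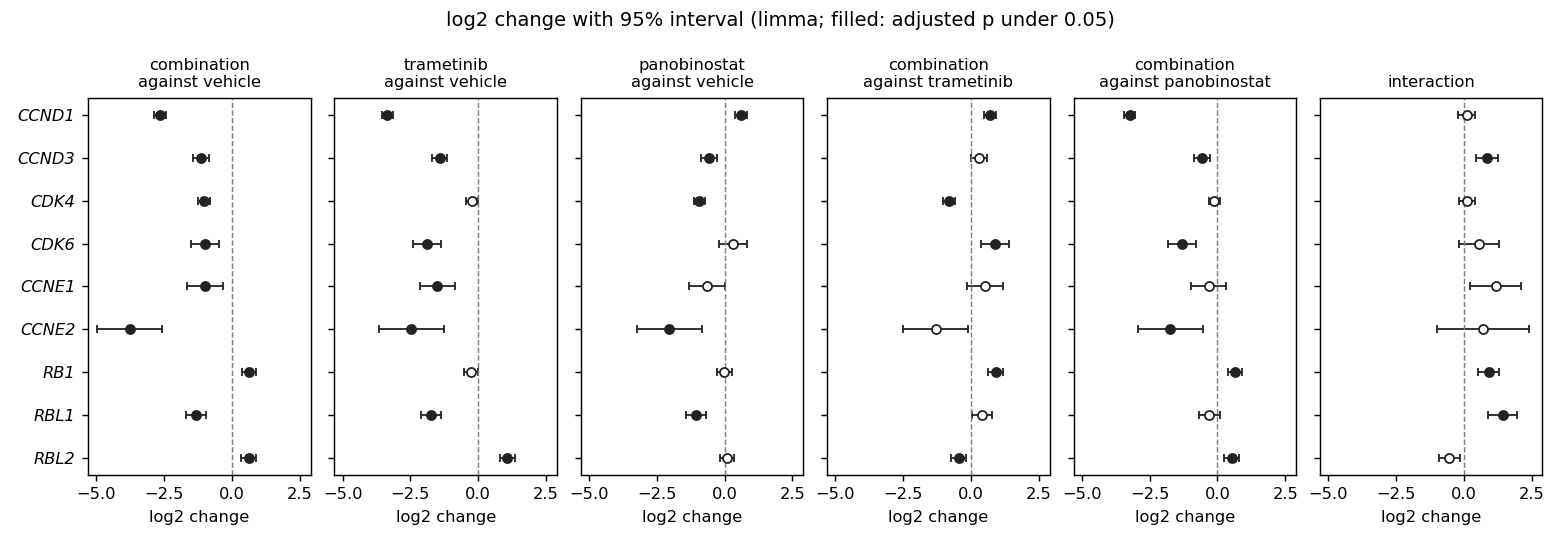
log2 change (horizontal axes) of the 9 tested members in the 5 comparisons and in the interaction, with 95% intervals from limma; filled circles passed an adjusted p under 0.05. All 9 circles are filled for the combination against vehicle, with RB1 and RBL2 to the right of 0, and CCND1 lies at -3.35 with trametinib and at 0.60 with panobinostat.

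By comparison, 7 of the 9 tested members passed with trametinib, 1 higher and 6 lower, where 51% of the 13320 genes passed (23.7% higher and 27.4% lower). With panobinostat 5 passed, 1 higher and 4 lower, where 30.5% of genes passed (15% and 15.6%). That count was 3 without vehicle replicate 2, panobinostat replicate 1 or panobinostat replicate 2. In the combination all 9 passed, 2 higher and 7 lower, where 50% of genes passed (24.5% and 25.5%). Among these, the CCNE1 and CDK6 calls ended when single libraries were left out, as given above. The median change of the members was -1.03 in the combination, -1.50 with trametinib and -0.56 with panobinostat, against 0.031, -0.073 and 0.0021 over all tested genes. These 3 comparisons share the vehicle libraries.

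Against trametinib, the combination had 3 members higher (CCND1, CDK6, RB1) and 2 lower (CDK4, RBL2), where 32.8% of genes passed (17.6% higher and 15.2% lower). When only those 2 groups were fitted, 3 members passed and the calls for CDK6 and RBL2 ended. Against panobinostat, it had 2 higher (RB1, RBL2) and 4 lower (CCND1, CCND3, CDK6, CCNE2), where 24% of genes passed (10.9% and 13.1%). That count was 3 without panobinostat replicate 2 or combination replicate 1. The combination libraries are shared by these comparisons, which are set side by side only.

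The interaction asks whether the change in the combination departs from the sum of the single-drug log2 changes, and a positive value means that the combination lay higher than that sum. It passed for 3 of the 9 members, all positive, where 19.3% of genes passed (10.2% higher and 9.04% lower). RBL1 changed by -1.34 in the combination against a sum of -2.77, an interaction of 1.44 ± 0.23 (limma adjusted p = 0.0027). RB1 changed by 0.64 against a sum of -0.28, an interaction of 0.92 ± 0.17 (limma adjusted p = 0.0049), which ended without the intensity trend (limma adjusted p = 0.05004). CCND3 changed by -1.14 against a sum of -1.99, an interaction of 0.85 ± 0.18 (limma adjusted p = 0.011), which ended without vehicle replicate 2 (0.79), panobinostat replicate 1 (0.82) or combination replicate 2 (0.80), or without the intensity trend. RB1 thus passed as higher in the combination although neither drug alone gave a passing change.

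The remaining 6 interactions did not pass. CCND1 was close to the sum, at 0.11 (95% interval -0.20 to 0.42), and so was CDK4, at 0.11 (95% interval -0.19 to 0.42). RBL2 was at -0.54 (95% interval -0.93 to -0.16, limma adjusted p = 0.055), and passed as lower than the sum without trametinib replicate 1 (-0.58) or 2 (-0.50), with a minimum mean of 50, with TMM scaling and by edgeR and DESeq2, so that 4 members passed under each of those last 4 settings and the direction was no longer shared. CCNE1 was at 1.18 (95% interval 0.24 to 2.11, limma adjusted p = 0.079), and passed without trametinib replicate 1 (1.35) or 2 (1.00) or without the intensity trend. CDK6 was at 0.56 (95% interval -0.17 to 1.29) and passed without trametinib replicate 2 (0.92), and CCNE2 was at 0.73 (95% interval -0.97 to 2.42). CCND1 passed without trametinib replicate 1 (0.27). The count of members past the threshold was therefore 6 without trametinib replicate 1, 6 without trametinib replicate 2 and 3 with both, and the count over all genes moved likewise, to 6215 and 4688 genes against 2565 with both.

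**Figure D4:**
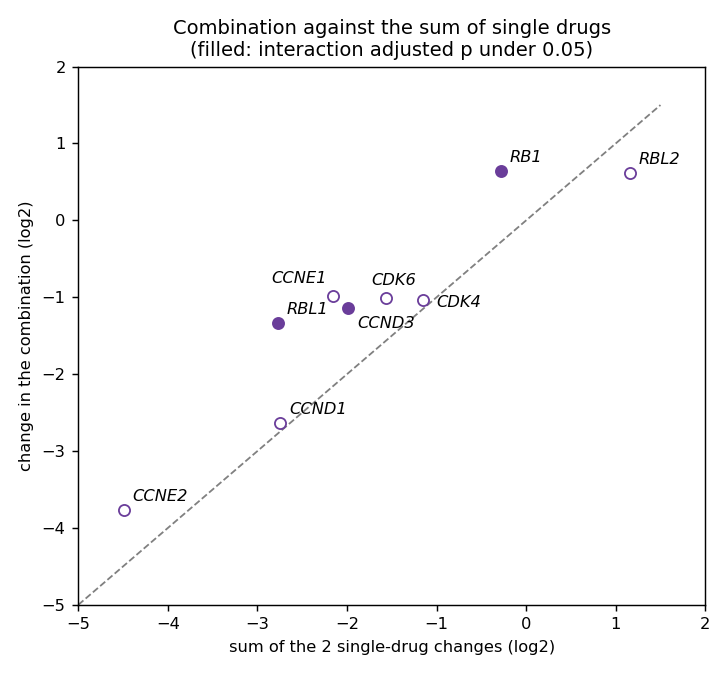
Change in the combination against vehicle (vertical axis, log2) plotted against the sum of the trametinib and panobinostat changes (horizontal axis, log2), 1 point per tested member; the dashed line marks equality and filled points have an interaction with limma adjusted p under 0.05. RBL1, RB1 and CCND3 are filled and lie above the line, and CCND1 and CDK4 lie 0.11 above it.

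Levels were compared between genes only per kilobase of merged exon in GENCODE 29, an approximation because the sources used here do not name the authors' annotation. In the combination CDK4 led with 414 counts per kilobase, ahead of RB1 (368), CCND1 (262), CCND3 (188) and RBL2 (116). CDK6 (39.8) and CCNE1 (38.7) were not separated beyond their spread, and RBL1 (30.2), CCNE2 (3.43) and CCND2 (0.235) followed. With trametinib CDK4 stood at 729, and RB1 (197), CCND1 (161), RBL2 (159) and CCND3 (155) formed a run of overlapping neighbours. CCNE1 (27.0) came next, then RBL1 (23.0) and CDK6 (22.1), which overlapped, and CCNE2 (9.80).

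With panobinostat CCND1 led at 2469 counts per kilobase, against 447 for CDK4, 280.2 for CCND3 and 235 for RB1. In vehicle CCND1 also led, at 1630 counts per kilobase, followed by CDK4 (851), CCND3 (414) and RB1 (236). CDK6 (78.8), CCNE1 (77.1), RBL1 (76.6) and RBL2 (75.7) followed in vehicle, where each overlapped the next in its replicates although both CDK6 values (78.9 and 78.6) lay above those of RBL1 (76.2 and 77.0) and RBL2 (77.4 and 74.1), and CCNE2 lay lower at 50.3. Per kilobase, CCND1 was thus the leading member in vehicle and with panobinostat, and had CDK4 and RB1 above it in the combination and with trametinib, where its values overlapped those of RB1 with trametinib.

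The genes whose profile over the 8 libraries was most like that of a member were taken from 10975 other genes with a mean of at least 50, by Pearson correlation of log2(value + 1). Symbols of clones, small RNAs and antisense RNAs had been left out of these genes. These are descriptions over libraries that share the 4 treatments and carry no p. For CCND1 they were CTNNB1 (r = 0.999), MBTPS2 (0.998), GNG12 (0.997), DUSP4 (0.993) and GPR161 (0.992). DUSP4, a phosphatase acting on ERK, averaged 1516 in the combination, 784 with trametinib, 12039 with panobinostat and 6887 in vehicle. For CDK4 they were ATF5 (0.992), CDV3 (0.989), FAM217B (0.989), DDX3X (0.985) and PATZ1 (0.985). ATF5, a transcription factor, averaged 134 in the combination, 431 with trametinib, 158 with panobinostat and 498 in vehicle. For CCNE2 they were MTFP1 (0.990), POLE3 (0.989), HNRNPC (0.989), TIMM44 (0.989) and POLR1E (0.986). For RBL2 they were ARHGAP23 (0.995), CREBL2 (0.993), MXD1 (0.992), FDFT1 (0.989) and MEX3A (0.988). MXD1, a partner of MAX that opposes MYC, averaged 277 in the combination, 453 with trametinib, 165 with panobinostat and 157 in vehicle.

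Among the members themselves, CCND1 and CDK6 had r = 0.937 over the 8 libraries, CCND3 and RBL1 had 0.952 and CCNE1 and RBL1 had 0.947. RBL2 ran opposite to CCND1 (-0.942), CDK6 (-0.915) and CCND3 (-0.913). CDK4 had r = -0.0058 with CCND1 and 0.698 with CCNE2. RB1 was nearest to CDK6 (0.132) and farthest from CDK4 (-0.649).

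The gene lists that follow surround the members in the same pathway. Genes that E2F turns on for S phase fell. Of 17 such genes, all were lower in the combination (median change -3.41), all were lower with trametinib (median -3.26) and 15 were lower with panobinostat (median -2.27), with 2 not passing. Of all tested genes, 25.5% were lower in the combination, 27.4% with trametinib and 15.6% with panobinostat. MCM3, a subunit of the replicative helicase, was at 317 and 303 in the combination, 379 and 379.8 with trametinib, 1045 and 969 with panobinostat, against 2647 and 2860 in vehicle. Its change was -3.15 ± 0.096 in the combination, -2.85 ± 0.096 with trametinib and -1.45 ± 0.096 with panobinostat (limma adjusted p from 4.3e-08 to 1.6e-05). In the interaction 15 of the 17 were higher than the sum of the single drugs and 0 were lower, where 10.2% of all genes were higher and 9.04% lower, with a median of 2.25 against 0.076 over all genes. PCNA, the sliding clamp of DNA polymerases, had an interaction of 2.42 ± 0.20 (limma adjusted p = 7.9e-05) and RRM1 one of 1.96 ± 0.21. Some genes of the list were near 0 with trametinib, as CDC45 was at 37.1 and 0. Values cannot fall below 0, so the combination may be unable to reach the sum for such genes. The part of this floor in the interaction was not tested. The list counts were not refitted with single libraries left out, so their dependence on any single library was not tested either.

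Of the 10 E2F and DP factors themselves, 1 rose and 9 fell in the combination, 1 rose and 8 fell with trametinib, and 1 rose and 5 fell with panobinostat, against the shares of all genes just given. Among those that fell with trametinib, E2F2 was at 10.0 and 0 and E2F8 at 28.1 and 0, each at 0 in replicate 2. E2F1 was at 33.95 and 31.9 in the combination, 27.1 and 21.1 with trametinib, 136 and 118 with panobinostat, against 698 and 637 in vehicle. All treated groups lay below vehicle, with panobinostat between. Its changes were -4.30 ± 0.28, -4.74 ± 0.28 and -2.39 ± 0.28 (combination, trametinib and panobinostat, limma adjusted p from 1.2e-06 to 0.00032). TFDP2, a DP partner, rose by 1.17 ± 0.12 in the combination, 0.93 ± 0.12 with trametinib and 0.96 ± 0.12 with panobinostat. TFDP1 changed by -1.47 ± 0.11, -1.25 ± 0.11 and -1.23 ± 0.11 in the same order. In the MuvB core, which joins p107 or p130 in the DREAM complex, 1 of 5 rose and 3 fell in the combination and with trametinib, and 0 rose and 3 fell with panobinostat, where 50%, 51% and 30.5% of all tested genes passed. LIN9 changed by -2.28 ± 0.29 in the combination, -2.33 ± 0.29 with trametinib and -1.29 ± 0.29 with panobinostat, and RBBP4 by -0.96 ± 0.095, -0.39 ± 0.095 and -0.67 ± 0.095.

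The cyclins and CDK of later phases all fell. CCNA2, CCNB1, CCNB2, CCNF and CDK1 were lower in the combination (5 of 5, median -2.26), with trametinib (5 of 5, median -2.91) and with panobinostat (5 of 5, median -1.23). Of all tested genes, 25.5%, 27.4% and 15.6% were lower in the same order. CDK1, the mitotic kinase, was at 209.6 and 208 in the combination, 74.2 and 51.2 with trametinib, 316 and 385 with panobinostat, against 1097 and 1048 in vehicle. Its combination level exceeded that with trametinib by 1.74 ± 0.20 (limma adjusted p = 0.00023), and its interaction was 3.36 ± 0.29 (limma adjusted p = 8.7e-05). CCNA2, cyclin A2, changed by -2.39 ± 0.23 in the combination, -2.91 ± 0.23 with trametinib and -1.81 ± 0.23 with panobinostat.

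Among 8 genes of CDK2 and cyclin-CDK activation, 0 rose and 5 fell in the combination, 1 rose and 6 fell with trametinib, and 0 rose and 3 fell with panobinostat, where 50%, 51% and 30.5% of all tested genes passed. The riser was CDK2, the partner of the E-type cyclins, at 2731 and 2603 in the combination, 7224 and 6600 with trametinib, 3103 and 2963 with panobinostat, against 3521 and 3125 in vehicle. The change with trametinib was 1.06 ± 0.076 (limma adjusted p = 3.6e-06), and in the combination it was -0.31 ± 0.076 (limma adjusted p = 0.0068). CDK2 overlaps PMEL on the opposite strand in GENCODE 29, and PMEL, a melanosome gene, was at 42296 and 45795 in the combination, 50705 and 53493 with trametinib, 28666 and 30566 with panobinostat, against 37252 and 36220 in vehicle. In RefSeq no gene overlapping CDK2 was found, and the authors' annotation is not known. The use of strand in counting is not stated either, so reads from any shared stretch cannot be told apart. A share of PMEL reads in CDK2 was not tested. CKS1B, a CDK subunit, changed by -2.17 ± 0.20 in the combination, -2.92 ± 0.20 with trametinib and -1.47 ± 0.20 with panobinostat. CDC25A, a phosphatase that activates CDK2, changed by -3.41 ± 0.36 in the combination, -3.06 ± 0.36 with trametinib and -2.01 ± 0.36 with panobinostat.

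Of 7 CDK inhibitors, 4 rose and 0 fell in the combination, 1 rose and 1 fell with trametinib, and 3 rose and 1 fell with panobinostat. All tested genes passed at 50%, 51% and 30.5%. The share of the list was near that in the combination, below it with trametinib and above it with panobinostat. By direction, 24.5% of all genes were higher and 25.5% lower in the combination, and 15% and 15.6% with panobinostat. The 4 that passed in the combination were all higher, where all genes were divided about evenly. CDKN1A, which encodes p21, was at 5237 and 5223 in the combination, 1855 and 2158 with trametinib, 3579 and 3611 with panobinostat, against 2564 and 2601 in vehicle. The groups did not overlap, and the combination was highest. The change was 1.02 ± 0.075 in the combination, -0.37 ± 0.075 with trametinib and 0.48 ± 0.075 with panobinostat (limma adjusted p from 4.8e-06 to 0.0027), and the interaction was 0.91 ± 0.11 (limma adjusted p = 0.00043). CDKN1C, which encodes p57, was at 207 and 271 in the combination, 107 and 189.9 with trametinib, 53.0 and 54.45 with panobinostat, against 10.8 and 3.17 in vehicle. CDKN2A, which encodes the CDK4 and CDK6 inhibitor p16, rose by 0.83 ± 0.12 in the combination (limma adjusted p = 0.00034). CDKN1B, which encodes p27, was at 587 and 499 in the combination, 607 and 497 with trametinib, 372 and 310 with panobinostat, against 443 and 456 in vehicle, and passed only between the combination and panobinostat (0.67 ± 0.15, limma adjusted p = 0.011) among the 6 comparisons.

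Of 10 genes of cyclin turnover, 4 rose and 3 fell in the combination, 2 rose and 3 fell with trametinib, and 2 rose and 2 fell with panobinostat. With 50%, 51% and 30.5% of all tested genes passing, the trametinib share was that of genes at large. AMBRA1, the ubiquitin ligase receptor for D-type cyclins, was at 1127 and 1114 in the combination, 1162 and 1150.3 with trametinib, 970.5 and 988 with panobinostat, against 622 and 701 in vehicle. It rose by 0.76 ± 0.09 in the combination, 0.81 ± 0.09 with trametinib and 0.57 ± 0.09 with panobinostat (limma adjusted p from 6.3e-05 to 0.0015). SKP2, which targets p27 for degradation, changed by -1.10 ± 0.15 in the combination, -0.83 ± 0.15 with trametinib and -1.10 ± 0.15 with panobinostat.

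**Figure D5:**
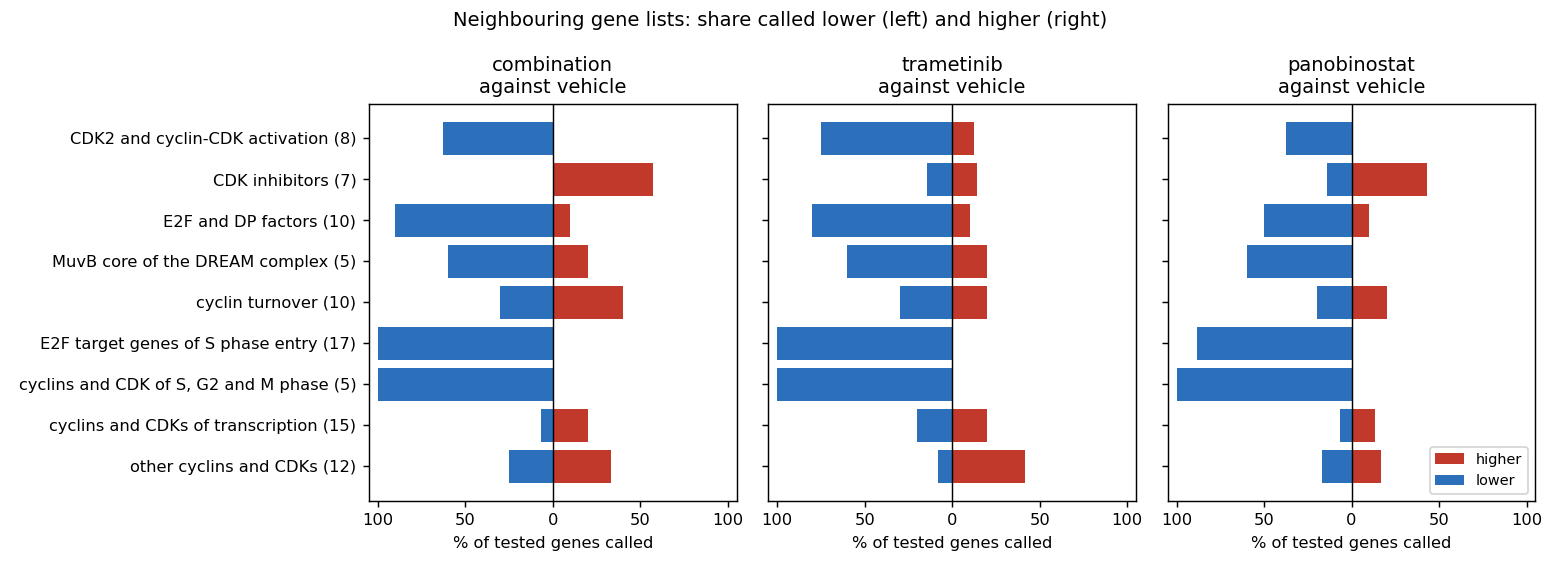
Share of the tested genes of each list (number in brackets) that passed limma's adjusted p under 0.05 as lower (left of 0) or higher (right of 0) than vehicle, in percent, for the combination, trametinib and panobinostat. The E2F targets are 17 of 17 lower in the combination and with trametinib, and the CDK inhibitors are 4 of 7 higher in the combination. Of all tested genes, 25.5% were lower and 24.5% higher in the combination, and 27.4% were lower with trametinib.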

How the data were processed

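The authors deposited 1 table of signal values, which were read counts per gene divided by a size factor for each library. The submitters' processing notes name TopHat2 2.0.13, Cufflinks 2.2.1 and DESeq2, without roles, and build hs37d5 is listed for the 4 vehicle and trametinib libraries and no build for the 4 with panobinostat. Any difference in culture, library preparation or processing between these sets cannot be told apart from panobinostat. The gene annotation and the counting settings are not given in the sources used here. A NuGEN Ovation kit for FFPE RNA was used on total RNA, per the labels' protocols. Within each library 100% of values were whole multiples of 1 step to within 1e-06, so whole reads could be recovered. In 3 libraries that step was within 1% of 1, where such steps are harder to tell from rounding, and the tests on recovered reads are alternatives only. Of the 8 sample columns none was left out.

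Changes were tested in limma 3.58.1 under R 4.3.3, with an intensity trend on log2(value + 1), which understates changes of low genes. Genes with a mean of at least 10 entered 1 fit of all 8 libraries (4 residual and 5.32 prior degrees of freedom), with Benjamini-Hochberg adjustment over all 13320 genes. Treatments were set against vehicle, the combination also against either drug, and the interaction was tested. Alternatives were pseudocounts of 0.5 and 5, no filter, a mean of at least 50, no trend, TMM scaling, only the groups compared, a replicate block, each library left out, and edgeR 4.0.16 and DESeq2 1.42.0 on recovered reads. The fits were also run on simulated counts with the same spread in every group and changes with trametinib only. That run cannot show how they handle the wider spread of the trametinib pair or a true interaction.

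The members and the gene lists were chosen with earlier results of these data known. All members are described. Up to 3 genes per list and comparison with the smallest adjusted p could be named, plus CDKN1A, CDKN1B, E2F1, CDK2, CCNA2 and CDK1, and the 5 genes best correlated with CCND1, CDK4, CCNE2 and RBL2. Of the other cyclins and CDKs, further lists are given at the end. Promoter sequences are from RefSeq (GRCh38.p14), whose table matched 7 of the 10 members, 5 of them with a window at the outermost start of the gene.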

Additional observations from a re-analysis of the deposited data

Results flagged for a closer look

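Of the members, 3 responded differently to panobinostat in the presence of trametinib than in its absence, by the interaction term of the limma fit, which 19.3% of all tested genes also passed. The effect of panobinostat with trametinib minus that without it was 1.44 for RBL1 (limma adjusted p = 0.0027), 0.918 for RB1 (limma adjusted p = 0.0049) and 0.851 for CCND3 (limma adjusted p = 0.011), all log2. For RBL1 the effect of panobinostat was 0.39 with trametinib and -1.04 without, for RB1 0.91 and -0.0068, and for CCND3 0.29 and -0.56. Of these, the effects with trametinib on RBL1 (limma adjusted p = 0.097) and CCND3 (limma adjusted p = 0.12) did not pass. That on RB1 without trametinib did not pass either. The part of the spread between the trametinib libraries in these values was not tested. Without trametinib replicate 1 and without trametinib replicate 2, 6 members passed in place of 3, and 6215 and 4688 genes in place of 2565.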

How the results depend on the processing

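Of 963 refits of the members' changes under 18 alternatives, 896 kept direction and side of the threshold, 38 lost it, 26 gained it and 3 turned direction. The turns were RB1 with panobinostat, at 0.035 without vehicle replicate 1 and 0.034 without panobinostat replicate 1, and the CCND1 interaction, which ran from -0.048 without trametinib replicate 2 to 0.27 without trametinib replicate 1. With 1 library left out, the count of genes past the threshold ran from 1971 to 6804 for panobinostat against vehicle (4069 with all libraries), from 2490 to 7383 for the combination against trametinib (4363), from 1686 to 5747 for the combination against panobinostat (3191) and from 1308 to 6215 for the interaction (2565). Members past the threshold ran from 3 to 7 with panobinostat, from 3 to 6 for the combination against panobinostat and from 2 to 6 for the interaction. Fitting only the groups compared gave 7335 genes for panobinostat against vehicle, 5343 for the combination against panobinostat, and 2256 genes and 3 members for the combination against trametinib; the cause was not tested. Without the intensity trend the interaction had 1600 genes, and its RB1 and CCND3 calls ended (limma adjusted p = 0.05004 and 0.068). edgeR on recovered reads called 6737 genes for the combination, 6783 for trametinib and 4273 for panobinostat against vehicle, where limma called 6662, 6797 and 4069. A minimum mean of 50, TMM scaling, edgeR and DESeq2 each added the RBL2 interaction (-0.54 to -0.57). DESeq2 also called CDK4 (-0.22) and RB1 (-0.26) with trametinib. TMM scaling moved the median of all genes by at most 0.027. Replicates with the same number did not deviate together (r from -0.023 to 0.022 between groups). Such values cannot show whether libraries of the same number shared a culture or day. With a replicate block 6673 genes passed for trametinib against vehicle, and no member call changed. Depth limited CCND2, and CCNE2 in the combination.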

Other observations

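Among 15 genes for the cyclins and CDKs of transcription, the combination had 3 higher and 1 lower (median change -0.10), trametinib 3 higher and 3 lower (median -0.10) and panobinostat 2 higher and 1 lower (median -0.11). These shares lie below the 50%, 51% and 30.5% of all tested genes. CDK7 and CCNH, which also activate cell cycle CDKs, are counted in this list and among the genes of CDK2 activation. CDK12, a kinase of RNA polymerase II, was at 1732 and 1756 in the combination, 2360 and 2349 with trametinib, 1962 and 1906 with panobinostat, against 2453 and 2379 in vehicle. It fell by 0.47 ± 0.063 in the combination (limma adjusted p = 0.00021). CCNC, the cyclin of the Mediator kinase module, was at 315 and 303 in the combination, 139 and 205 with trametinib, 299 and 299 with panobinostat, against 445 and 367 in vehicle, and its interaction was 1.30 ± 0.29 (limma adjusted p = 0.013). CDK11A and CDK11B are near-identical copies whose reads the counting may have split.

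Among 12 other cyclins and CDKs, the combination had 4 higher and 3 lower, trametinib 5 higher and 1 lower, and panobinostat 2 higher and 2 lower, shares near those of all tested genes. CCNG2, a cyclin associated with cell cycle arrest, was at 438 and 566 in the combination, 335 and 408 with trametinib, 230.4 and 218 with panobinostat, against 86.7 and 73.6 in vehicle. It rose by 2.62 ± 0.20 in the combination and 1.48 ± 0.20 with panobinostat (limma adjusted p = 5.6e-06 and 0.00063), and also passed as higher with trametinib (limma adjusted p = 1.6e-05). Its interaction was -1.05 ± 0.28 (limma adjusted p = 0.029).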
